A study of Homo sapiens with 2 samples.

Results

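A set of 10 antioxidant and NRF2 target genes was followed in colon organoids made from human induced pluripotent stem cells: SOD1, SOD2, TXN, TXNRD1, SRXN1, GPX2, GCLC, GCLM, NQO1 and HMOX1. They were found by symbol, and each matched 1 of the 36601 genes in the count tables. The study compared 2 single-cell RNA libraries of the iPS cell line 1383D6, both labelled as colon epithelial cells of colon organoids. The CNT library came from organoids without cytokines. The 3CK library came from organoids given tumour necrosis factor-α, interferon-γ and interleukin-1β for 8 days. Cells of both libraries had passed through Activin A and FGF2, had been embedded in Matrigel, and had been given EGF, forskolin, the kinase inhibitor PD98059 and the demethylating agent 5-aza-2'-deoxycytidine, so the controls carried those agents too. The protocol text available here ends mid-word, so this list of agents may be incomplete. Each group held 1 library from 1 line, no test between them was possible, and the intervals given are 95% counting intervals that leave out differences between cultures.

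NRF2, encoded by NFE2L2, is a transcription factor that KEAP1 holds in the cytoplasm and passes to a ubiquitin ligase. Oxidants and electrophiles modify KEAP1, NRF2 then accumulates, pairs with small MAF proteins and binds antioxidant response elements, while BACH1 competes for the same sites. In the gut lining these genes limit peroxides, quinones and free haem, and the mitochondrial dismutase SOD2 is in addition a well-known target of NF-κB, the factor that tumour necrosis factor and interleukin-1 activate.

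Promoter sequence was looked up for the antioxidant response element, since it is the site by which several of these genes are classed together. RefSeq promoter windows (GRCh38.p14, 300 bases, 250 before and 50 after each start site) were found for 8 members, in 12 windows. The core TGACNNNGC, searched on both strands, was in 4 windows of 3 members, GCLM, TXNRD1 and GPX2, and in 13.3% of all 35116 windows. The sequences that follow show that core in capitals with the bases around it, each 5′ to 3′ on the strand of its gene. GCLM lies on the minus strand (chr1:93909446-93909474), the upstream and downstream TXNRD1 starts on the plus strand (chr12:104215670-104215698 and chr12:104286920-104286948), and GPX2 on the minus strand (chr14:64942849-64942877).
GCLM: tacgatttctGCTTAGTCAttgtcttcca
TXNRD1 upstream start: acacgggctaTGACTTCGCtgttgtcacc
TXNRD1 downstream start: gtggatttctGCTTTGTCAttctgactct
GPX2: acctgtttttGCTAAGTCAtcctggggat
At the upstream TXNRD1 start a further match, on the reverse strand at chr12:104215771-104215779, reaches into the first exon and is not printed. The printed upstream TXNRD1 sequence shows the core in the forward direction, and the other printed sequences show its reverse complement. In the GENCODE 44 annotation the printed upstream TXNRD1 match and the GPX2 match lay upstream of the gene, whereas the downstream TXNRD1 match overlapped an annotated exon. The GCLM match (chr1:93909456-93909464) met the annotated gene only at its first base, chr1:93909456, and otherwise lay upstream of it. The NF-κB motif was searched on both strands as GGGRNNYYCC, where R is A or G, Y is C or T and N is any base. It matched 0 of the 12 member windows, those of SOD2 included, and 11.3% of all windows. A match or its absence describes these letters only.

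After filtering, 2487 CNT cells (median 28911 UMIs, the unique molecules counted per cell) and 1398 3CK cells (median 62746) remained, and the libraries shared 0 barcodes. Cells with at least 2 EPCAM UMIs per 10000 formed the epithelial class (1660 CNT and 1016 3CK cells), and cells with at least 5 UMIs per 10000 of COL1A1, COL1A2 and COL3A1 and under 1 of EPCAM formed the mesenchymal class (574 and 124 cells). The mesenchymal class thus took 23.1% of CNT (21.4 to 24.8) and 8.87% of 3CK (7.43 to 10.5), although the labels name an epithelium. The remaining cells, 253 and 258, met neither rule and include cells low in both EPCAM and collagens. Of the epithelial cells, 598 in CNT and 240 in 3CK held under 5000 UMIs, where 1 EPCAM UMI is enough to meet the rule. These shallow cells count in the CPM values but were left out of the thinned shares. Markers outside the rule separated the classes in part: CDH1 was at 138 CPM (UMIs of a gene per 1000000 UMIs of all genes) in CNT epithelial and 14.9 in CNT mesenchymal cells, and 251 and 7.57 CPM in 3CK. KRT18 did not separate them (4303 and 4930 CPM in CNT, 10938 and 6968 in 3CK). The 7 hepatic markers, which include TTR and APOA1, summed to 98578 and 32839 CPM in epithelial cells of CNT and 3CK, all 7 were detected in both, and their part in the differences between the libraries was examined only by dividing cells on TTR, as described further on. The 12 mesenchymal markers summed to 15197 and 10346 CPM in the mesenchymal cells, and since 3 of them define the class, a lower collagen level in 3CK also moves cells out of it. Other markers moved with the mesenchymal class as well: the 7 leukocyte markers summed to 56.5 and 199 CPM there, with TYROBP at 27.1 and 87.9 CPM, CD68 at 26.7 and 91.4 CPM and PTPRC at 0.560 and 3.62 CPM, while CD3E was at 0 in 3CK. The 3 cycling markers summed to 118 and 169 CPM and the 3 neuronal markers to 208 and 119 CPM. Their part in the mesenchymal ratios of the members was not tested.

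Over all kept cells, 2 of the 10 members were at least 2-fold higher in 3CK, SOD2 and GPX2, and 0 were at least 2-fold lower. Of 10259 genes whose higher level was 10 CPM or more, 6.43% were 2-fold higher and 7.34% were 2-fold lower. In epithelial cells 3 members were 2-fold higher, SOD2, TXNRD1 and GPX2, and 0 lower, against 7.88% and 7.62% of genes. In mesenchymal cells 9 members reached 10 CPM, of which SOD2 alone was 2-fold higher and 0 were lower, against 4.8% and 9.59% of genes. The median log2 ratio of the members was 0.38 over all cells, 0.38 in epithelial and 0.33 in mesenchymal cells, and that of all genes was 0.01, 0.07 and -0.12. The members summed to 1049 and 2207 CPM in the CNT and 3CK libraries, and to 976 and 1294 CPM without SOD2. SOD2 therefore accounted for most of the added transcripts.

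**Figure D1:**
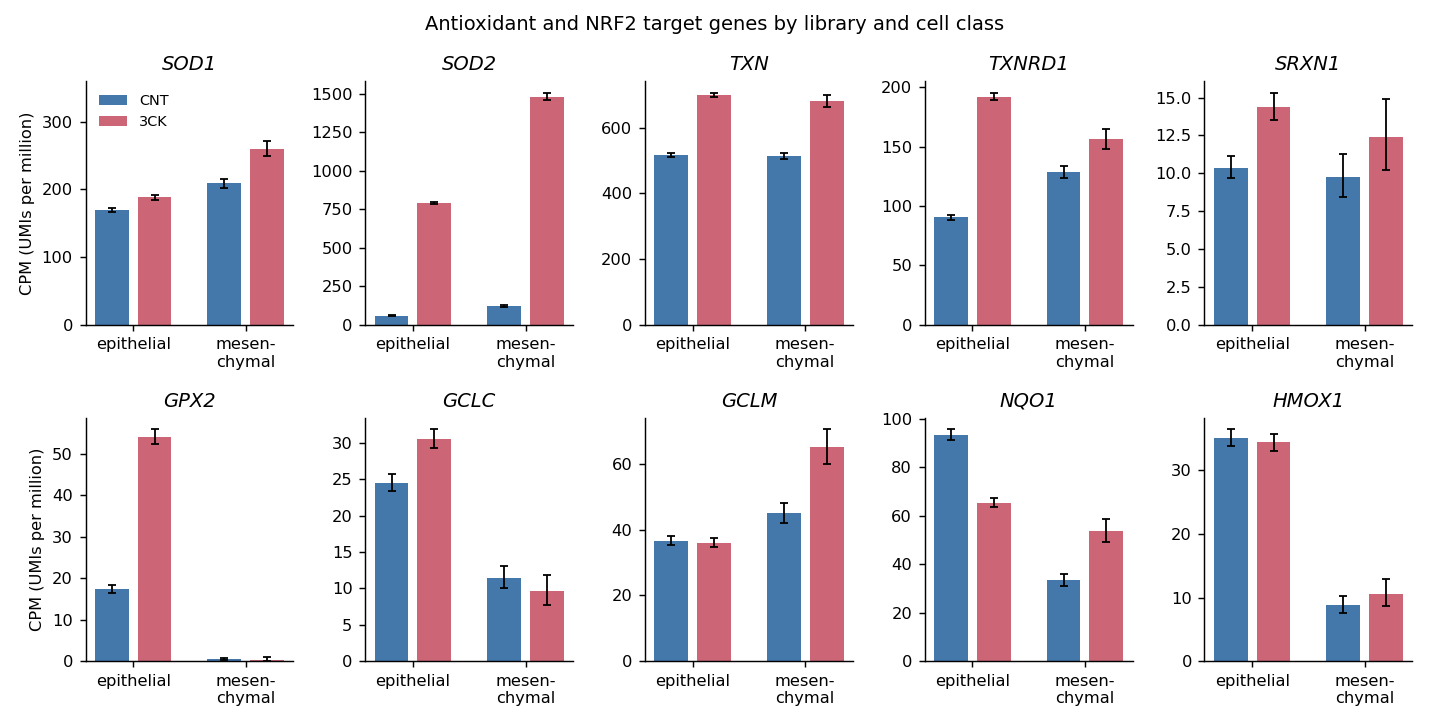
CPM (linear axis from 0, a separate scale for each gene) of the 10 members in epithelial and mesenchymal cells of the CNT library (blue) and the 3CK library (red); bars are values of 1 library and error bars are 95% Poisson intervals. SOD2 was higher in 3CK in both classes, GPX2 was near 0 in mesenchymal cells of both libraries, and NQO1 was lower in 3CK in epithelial cells but higher in mesenchymal cells.

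SOD2 (ENSG00000112096; chr6:159669069-159762529, minus strand) makes the manganese superoxide dismutase of mitochondria, which turns superoxide into hydrogen peroxide. Its level over all kept cells was 72.6 CPM in the CNT library and 913 CPM in the 3CK library, a 12.6-fold difference (log2 3.65, 3.62 to 3.69), the 109th largest ratio of the 10259 genes. In epithelial cells it was 58.7 and 791 CPM (log2 3.75, 3.71 to 3.80), and in mesenchymal cells 121 and 1483 CPM (log2 3.62, 3.55 to 3.68). The cells of neither class held 90.3 and 1178 CPM, so every class of 3CK exceeded every class of CNT. The order of the levels was the same in both libraries, with mesenchymal cells highest, the cells of neither class next and epithelial cells lowest. The log2 ratio of epithelial over mesenchymal cells was -1.04 (-1.12 to -0.97) in CNT and -0.91 (-0.93 to -0.88) in 3CK.

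The higher SOD2 level was spread over most 3CK cells. With each cell thinned to 10000 UMIs, the median epithelial cell held 0 SOD2 UMIs in CNT (1013 cells) and 6 in 3CK (730 cells). Of the 3CK epithelial cells, 586 (80.3%, 77.2 to 83.1) held more than the 2 UMIs that mark the 95th percentile of CNT cells. In mesenchymal cells the medians were 1 and 10.5 UMIs, and 77 of 106 cells of 3CK (72.6%, 63.1 to 80.9) were above 5 UMIs, the same percentile of CNT. The distributions overlapped in the lowest cells, as the cumulative curves of 4 members show. At 5000 UMIs per cell, 26.2% of CNT and 87.8% of 3CK epithelial cells held a SOD2 UMI, and without thinning the shares were 59.4% and 94.0% at median depths of 37785 and 72198 UMIs.

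**Figure D2:**
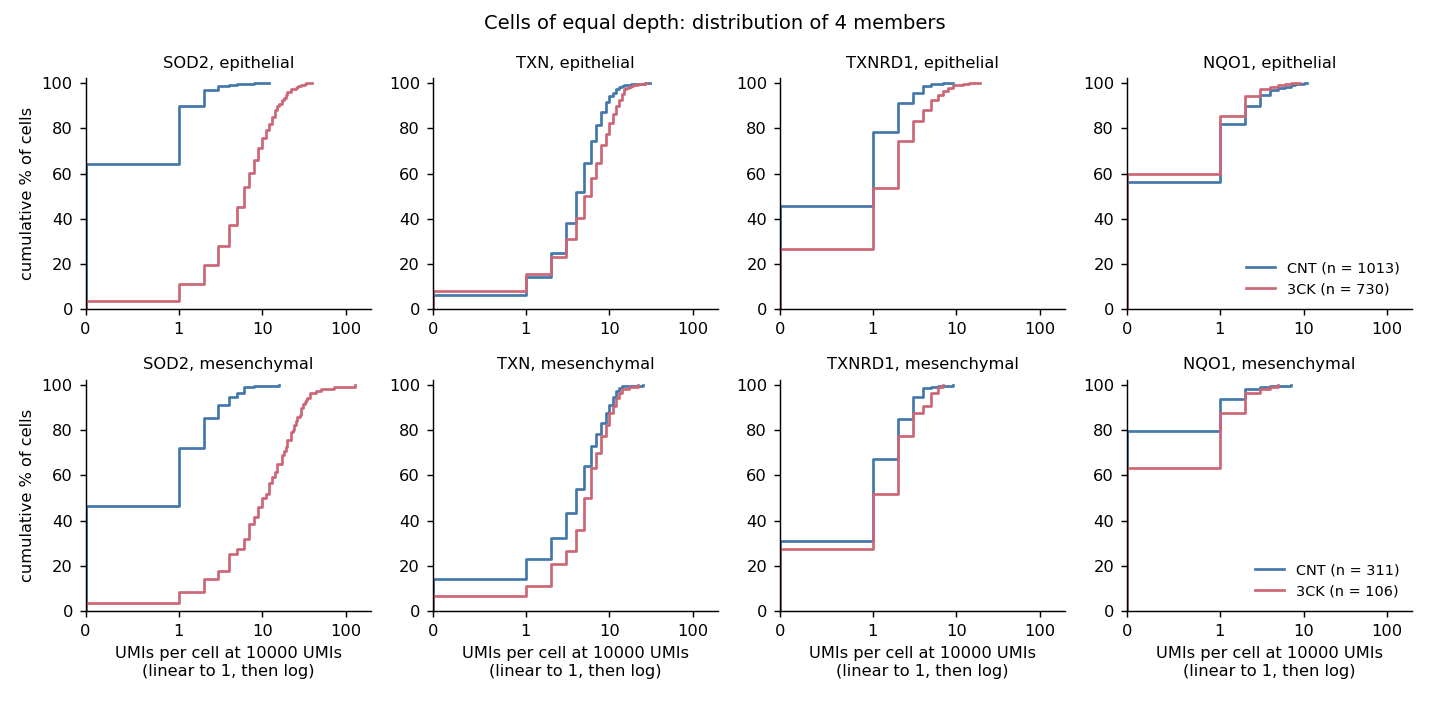
Cumulative percentage of cells (vertical axis) holding up to a given number of UMIs (horizontal axis, linear to 1 and then logarithmic) of SOD2, TXN, TXNRD1 and NQO1 after each cell was thinned to 10000 UMIs; CNT is blue and 3CK red, with the number of cells beside each. The SOD2 curves are far apart in both classes (medians 0 and 6 in epithelial cells), while those of TXN and NQO1 lie closer together than those of SOD2. In mesenchymal cells the NQO1 curves start apart, with an NQO1 UMI in 20.6% of CNT and 36.8% of 3CK cells.

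Among 3CK epithelial cells, the 5 genes whose levels were most like SOD2 across 730 cells were C3, TGM2, CXCL5, C15orf48 and ICAM1, with Pearson r of 0.37 to 0.34 over 3227 genes compared. Among 106 3CK mesenchymal cells they were GBP1 (r = 0.53), CXCL1, LAP3, IL6 and MT2A (r = 0.46). All of these cells share 1 library, and only genes with at least 50 CPM in those cells were compared. SRXN1, GCLC, GCLM and HMOX1 in epithelial cells, and SRXN1, GPX2, GCLC and HMOX1 in mesenchymal cells, were under that limit and could not appear. No other member that could appear was among the genes listed. NF-κB targets outside the members were listed for comparison. Of 8 listed, 6 were at least 2-fold higher in 3CK over all cells, beside 6.43% of all genes. The list was led by the adhesion molecule ICAM1 (15.7 to 713 CPM, log2 5.50), and NFKB2 was lowest in it (20.0 to 35.7 CPM, log2 0.84).

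SOD1 (ENSG00000142168; chr21:31659666-31668931, plus strand), the copper and zinc dismutase of the cytosol, differed far less. It was at 176 and 199 CPM over all cells (log2 0.17, 0.14 to 0.20), at 170 and 188 CPM in epithelial cells (log2 0.15) and at 209 and 260 CPM in mesenchymal cells (log2 0.32, 0.24 to 0.39). Thus the 2 dismutases, which act on the same substrate in different compartments, had log2 ratios of 0.17 and 3.65.

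Thioredoxin and its partners reduce protein disulphides and return oxidised peroxiredoxins to use. TXN (ENSG00000136810; chr9:110243810-110256507, minus strand) was at 508 CPM in CNT against 691 CPM in 3CK (log2 0.45, 0.43 to 0.46). Its ratio was alike in epithelial (517 and 701 CPM, log2 0.44) and mesenchymal cells (514 and 681 CPM, log2 0.41), and within each library the 2 classes were within 0.04 of each other on the log2 scale. A TXN UMI was found at 5000 UMIs per cell in 82.1% of CNT and 86.1% of 3CK epithelial cells, and in 77.6% and 90.3% without thinning.

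TXNRD1 (ENSG00000198431; chr12:104215779-104350307, plus strand) encodes the selenoenzyme that reduces thioredoxin with NADPH. In epithelial cells it was at 90.6 and 192 CPM, a 2.12-fold difference (log2 1.09, 1.04 to 1.13). In mesenchymal cells the values were 129 and 156 CPM (log2 0.28, 0.18 to 0.37). The order of the classes was therefore opposite in the libraries, with epithelial over mesenchymal at -0.51 (-0.58 to -0.44) in CNT and 0.30 (0.22 to 0.38) in 3CK. Epithelial cells with a TXNRD1 UMI at 5000 UMIs per cell made up 34.7% in CNT and 51.5% in 3CK, against 64.9% and 79.9% unthinned. The epithelial value lay close to the 2-fold limit, and with totals that left out mitochondrial, ribosomal and the 50 most abundant genes it was 0.97. Equal weight per cell also ended its 2-fold call, so 2 members were 2-fold higher in epithelial cells in each of these settings.

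SRXN1 (ENSG00000271303; chr20:646615-653200, minus strand), the sulfiredoxin that repairs over-oxidised peroxiredoxins, was the member with the fewest UMIs in CNT. Its level was 10.3 CPM in CNT against 14.3 CPM in 3CK (log2 0.48, 0.36 to 0.60), and its ratio in epithelial cells was 0.47 (0.34 to 0.61), though smaller among cells divided by TTR. Its mesenchymal interval included 0 (192 and 113 UMIs, log2 0.34, -0.01 to 0.69), and so did both intervals between the classes.

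**Figure D3:**
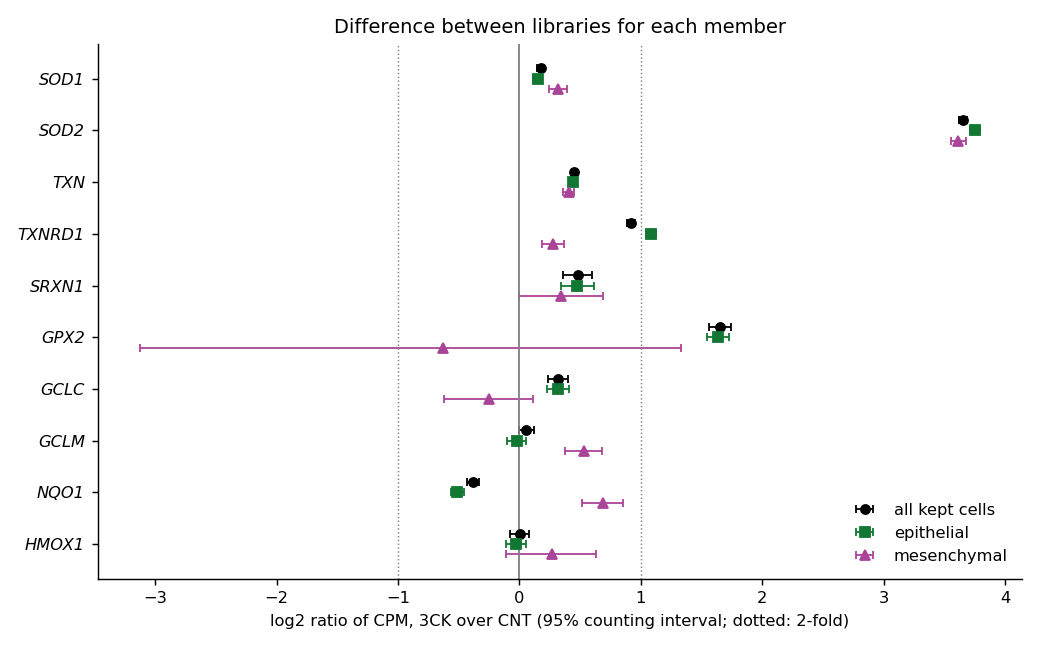
Log2 ratio of CPM, 3CK over CNT (horizontal axis), of each member in all kept cells (circles), epithelial cells (squares) and mesenchymal cells (triangles); bars are 95% counting intervals and dotted lines mark 2-fold. SOD2 lies near 3.65 in each class, GPX2 near 1.65 in all and in epithelial cells with a wide mesenchymal interval from 13 UMIs in all, and NQO1 lies on opposite sides of 0 in the 2 classes.

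GPX2 (ENSG00000176153; chr14:64939152-64942746, minus strand) encodes the glutathione peroxidase typical of the digestive tract epithelium. Its level over all cells was 13.3 CPM in CNT against 42.0 CPM in 3CK (log2 1.65, 1.56 to 1.74), and at 17.4 and 54.1 CPM in epithelial cells, a 3.10-fold difference (log2 1.63, 1.54 to 1.73). Mesenchymal cells held 10 GPX2 UMIs in CNT and 3 in 3CK. Epithelial over mesenchymal was 5.10 (4.21 to 6.16) in CNT and 7.36 (5.81 to 9.64) in 3CK, the 98th of 10891 and the sixth highest ratio of 10317 genes. The mesenchymal level was 2.92% of the epithelial level in CNT and 0.608% in 3CK. The hepatic and enterocyte transcripts TTR, APOA1, APOA2 and FABP1 stood at 1.69 to 2.86% and 0.935 to 1.81% in the same comparison, so GPX2 in mesenchymal cells lay near the level of transcripts that belong to other cells.

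Even in the epithelium GPX2 was found in a minority of cells. At 5000 UMIs per cell a GPX2 UMI was present in 58 of 1062 CNT cells (5.46%) and 106 of 776 3CK cells (13.7%), and unthinned in 18.6% and 36.7%. The background at that depth was 0 of 320 CNT and 0 of 107 3CK mesenchymal cells, which, at 3 counts of the total, allows a share of up to 0.938% and 2.80%, at median depths of 52742 and 75388 UMIs before thinning. Across 1013 CNT epithelial cells the genes most like GPX2 were ALDH1A1 (r = 0.29), S100P, TFF3, REG4 and the member NQO1 (r = 0.18), of which TFF3 and REG4 are goblet cell products.

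GCLC (ENSG00000001084; chr6:53497341-53616970, minus strand) and GCLM (ENSG00000023909; chr1:93885199-93909456, minus strand) encode the catalytic and the modifier subunit of glutamate-cysteine ligase, which makes the first step of glutathione synthesis. The subunits had different ratios. In epithelial cells GCLC was at 24.5 and 30.5 CPM (log2 0.31, 0.22 to 0.40), while GCLM was at 36.6 and 36.0 CPM (log2 -0.02, -0.10 to 0.05). The epithelial GCLC ratio was smaller within each group of cells divided by TTR, as given further on. In mesenchymal cells GCLC was at 11.5 and 9.65 CPM (log2 -0.25, -0.62 to 0.11), while GCLM was at 44.9 and 64.9 CPM (log2 0.53, 0.38 to 0.68). The classes also ranked them oppositely. Epithelial over mesenchymal was 1.09 (0.89 to 1.30) in CNT and 1.66 (1.35 to 1.98) in 3CK for GCLC, and -0.30 (-0.41 to -0.18) and -0.85 (-0.98 to -0.72) for GCLM. With TMM scaling the CNT values of GCLM and SOD1 in that comparison changed sign, to 0.09 and 0.08, under a shift of the median of all genes from -0.28 to 0.10.

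NQO1 (ENSG00000181019; chr16:69706996-69726668, minus strand), a quinone reductase often used as the reference NRF2 target, was the one member with a lower level in 3CK over all cells whose interval left out 0, at 78.0 CPM in CNT against 60.0 CPM in 3CK (log2 -0.38, -0.43 to -0.33). In epithelial cells it was at 93.4 and 65.4 CPM (log2 -0.51, -0.57 to -0.46). In mesenchymal cells it was at 33.5 and 53.9 CPM (log2 0.69, 0.51 to 0.86). The order of the 4 levels was CNT epithelial, 3CK epithelial, 3CK mesenchymal and CNT mesenchymal, so the difference between the classes was 1.48 (1.36 to 1.60) in CNT and 0.28 (0.15 to 0.42) in 3CK. With equal weight per cell the CNT difference was 0.26, which ended its 2-fold call, and among cells of at least 10000 UMIs so weighted it was 1.39.

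The epithelial NQO1 difference was small in the share of cells with a UMI. A UMI was found at 5000 UMIs per cell in 29.2% of CNT and 26.0% of 3CK epithelial cells, whose intervals overlapped (26.5 to 32.0 and 23.0 to 29.3). The mean per epithelial cell at that depth was 0.466 UMIs in CNT and 0.344 in 3CK, so the lower level in 3CK remained at equal depth. Without thinning the shares were 55.7% and 66.8%, an order opposite to the CPM at unequal depth. The mesenchymal shares were 11.9% and 22.4% thinned, and 36.2% and 66.1% unthinned. The mesenchymal ratio, 0.69 from summed UMIs, was -0.53 with each cell given equal weight. It was 0.76 when only cells of at least 10000 UMIs were so weighted, 263 of 574 CNT and 18 of 124 3CK cells being shallower. The part of shallow cells in this change of sign was not tested. Among 730 3CK epithelial cells the genes most like NQO1 were MYDGF (r = 0.18), POLD4, DBNDD2, the ferritin chain FTH1 and ATP5PD (r = 0.15), all weak.

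HMOX1 (ENSG00000100292; chr22:35380361-35394214, plus strand), the haem oxygenase that BACH1 represses, was level between the libraries. Its level was 29.0 and 29.1 CPM over all cells (log2 0.00, -0.07 to 0.08) and at 35.0 and 34.3 CPM in epithelial cells (log2 -0.03, -0.11 to 0.05). In mesenchymal cells it was at 8.86 and 10.6 CPM (log2 0.26, -0.11 to 0.63), and with equal weight per cell that ratio was -0.39. Epithelial over mesenchymal was 1.98 (1.76 to 2.21) in CNT and 1.69 (1.40 to 2.00) in 3CK.

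Between the classes, 4 members were at least 2-fold higher in CNT epithelial than mesenchymal cells, GPX2, HMOX1, NQO1 and GCLC, and 1 was lower, SOD2, against 12.2% and 21.1% of 10891 genes. In 3CK 3 members were 2-fold higher in epithelial cells, GPX2, HMOX1 and GCLC, and 0 were lower, against 13.3% and 15% of 10317 genes. The median of the members was 0.05 in CNT and 0.25 in 3CK, and that of all genes -0.28 and -0.07. In CNT mesenchymal cells GCLC, NQO1 and HMOX1 stood at 46.9%, 35.9% and 25.3% of their epithelial levels, above the 1.69 to 2.86% of those same transcripts. The mesenchymal class was shallower in CNT, where 254 of its 574 cells had under 5000 UMIs against 17 of 124 in 3CK, and the part of depth in these ratios was not tested beyond the comparison of cells with at least 10000 UMIs, in which the counts of members were again 4, 1, 3 and 0.

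Because TTR-rich, hepatic-like cells took different shares of the epithelium, epithelial cells of both libraries were divided at the tertiles of TTR (149 and 423 UMIs per 10000). The low, middle and high groups held 277, 606 and 777 CNT cells and 615, 286 and 115 3CK cells. SOD2 had nearly the same ratio in each, log2 3.31, 3.44 and 3.32, although its level was lower in cells richer in TTR in both libraries (897, 731 and 475 CPM in 3CK). Each of these was smaller than the 3.75 of the whole epithelium, and their intervals (3.22 to 3.40, 3.35 to 3.53 and 3.25 to 3.39) did not reach its interval.

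The ratios of other members varied with TTR. GPX2 was at 38.6, 22.0 and 10.5 CPM in low, middle and high cells of CNT and at 53.4, 53.5 and 58.5 CPM in 3CK, so its ratio was 0.47 (0.32 to 0.62), 1.28 (1.12 to 1.45) and 2.47 (2.29 to 2.65). TXNRD1 showed the opposite order, with 0.99 (0.91 to 1.08), 0.66 (0.58 to 0.75) and 0.16 (0.04 to 0.27). TXNRD1 was thus just under 2-fold in low cells, with an interval reaching past it, and nearly level in high cells.

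HMOX1, level over the epithelium as a whole, was at 37.3 and 29.0 CPM among low cells of CNT and 3CK (log2 -0.37, -0.53 to -0.20) and at 35.6 and 60.0 CPM among high cells (log2 0.75, 0.61 to 0.89). The NQO1 ratio was -0.40 and -0.62 in low and middle cells and -0.10 (-0.21 to 0.00) in high cells. The GCLC ratio of 0.31 in the whole epithelium was 0.03, -0.05 and 0.09 within the groups, each interval including 0. The SRXN1 ratio of 0.47 was 0.09 (-0.16 to 0.35), 0.31 (0.06 to 0.56) and -0.03 (-0.41 to 0.32). Cells of a group still differed in TTR (92838 and 65194 CPM among high cells of CNT and 3CK), and whether TTR or another property of these cells moved with the members was not tested.

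**Figure D4:**
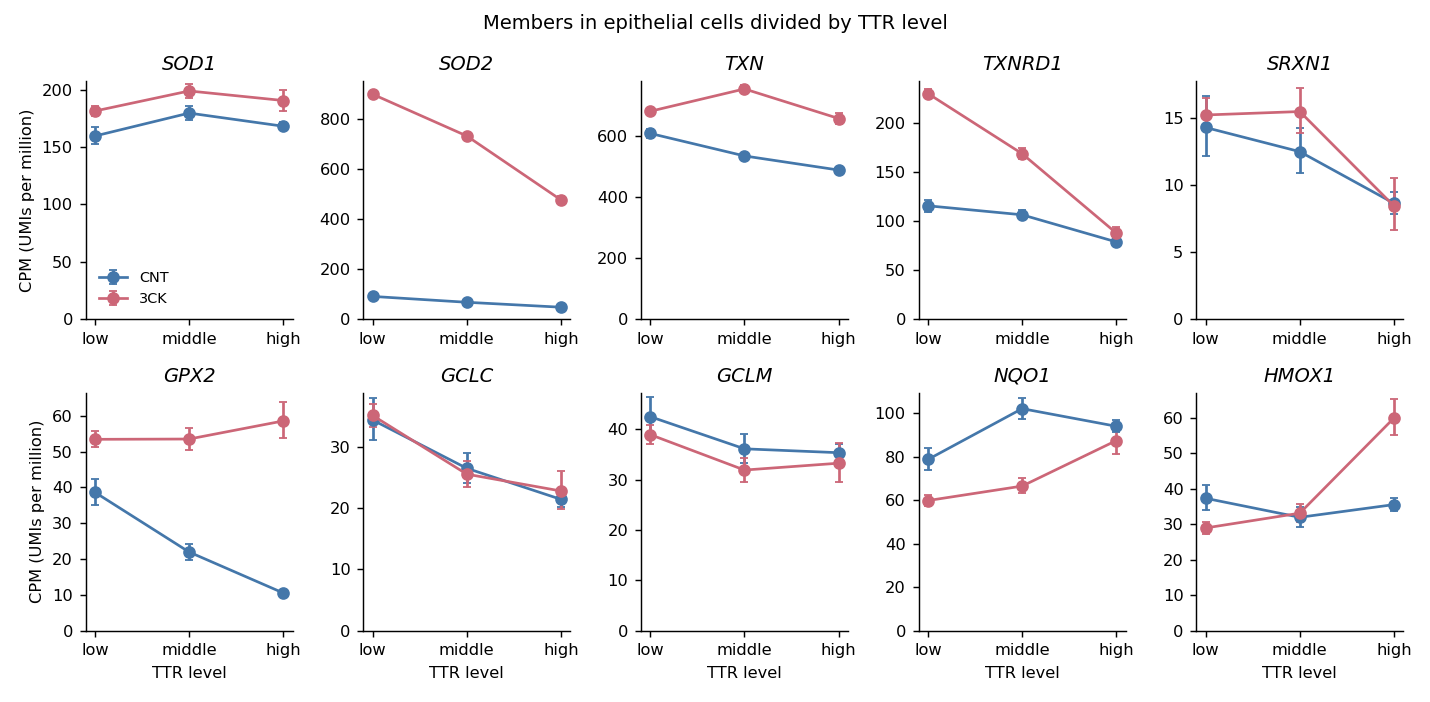
CPM (linear axis from 0, a separate scale for each gene) of the members in epithelial cells with low, middle and high TTR, cut at the tertiles over both libraries; CNT is blue and 3CK red, and bars are 95% Poisson intervals. The SOD2 lines run far apart in all 3 groups, the GPX2 lines diverge from low to high, the GCLC lines lie together, and the HMOX1 lines cross.

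Across single cells the members varied nearly independently. At 10000 UMIs per cell the median Pearson correlation over the 45 pairs was 0.04 in CNT and 0.04 in 3CK epithelial cells, and 0.02 and -0.02 in mesenchymal cells. SOD1 with TXN was the highest pair in each of the 4 sets of cells, at 0.21 and 0.36 in epithelial and 0.41 and 0.46 in mesenchymal cells. TXN with GCLC was the lowest, at -0.28 in 3CK epithelial cells. The cells of a set share 1 library and the counts are sparse, so weak values carry little.

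The regulators of the pathway were measured beside the members, with values given for CNT before 3CK. Of 10 regulators, 2 were 2-fold higher in 3CK over all cells and 0 lower, beside 6.43% and 7.34% of all genes. The 2 were BACH1, the repressor, at 55.0 and 114 CPM (log2 1.05, 1.01 to 1.10), and MAFF, a small MAF partner, at 16.4 and 44.1 CPM (log2 1.43, 1.34 to 1.51). NFE2L2 itself was at 80.7 and 117 CPM (log2 0.53, 0.49 to 0.57) and KEAP1 at 23.0 and 26.2 CPM (log2 0.19, 0.11 to 0.28). SQSTM1, an adaptor that sequesters KEAP1, was the most abundant of the list (231 and 356 CPM, log2 0.62), and CUL3, the ligase scaffold, was the lowest in ratio (55.9 and 50.5 CPM, log2 -0.15). In epithelial cells 4 regulators were 2-fold higher, NFE2L1, BACH1, MAFF and MAFK, beside 7.88% of all genes. Transcript levels of NFE2L2 and KEAP1 do not show protein activity.

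Further NRF2 targets were counted from a list that leaves out the members. Of 23 listed, 18 reached 10 CPM, of which 0 were 2-fold higher and 2 were 2-fold lower in 3CK, beside 6.43% and 7.34% of all genes, with a median log2 ratio of -0.13 against 0.01. These counts are near the share in all genes. The aldo-keto reductase AKR1B10 was at 15.2 and 1.34 CPM (log2 -3.50, -3.78 to -3.24), and AKR1C3 at 41.1 and 13.8 CPM (log2 -1.57). TALDO1, of the pentose phosphate pathway, had the highest ratio (169 and 218 CPM, log2 0.37), and the ferritin light chain FTL was the most abundant (10805 and 8454 CPM, log2 -0.35). In CNT, AKR1B10 came almost wholly from the epithelium, at 19.8 CPM in epithelial and 0.865 CPM in mesenchymal cells. In 3CK the 2 classes were at 1.53 and 1.10 CPM, with an interval between them that included 0 (log2 0.48, -0.46 to 1.58).

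Of 22 other antioxidant enzymes that reached 10 CPM, 2 were 2-fold higher over all cells, the glutaredoxin GLRX (303 and 893 CPM, log2 1.56) and the methionine sulphoxide reductase MSRB1 (21.8 and 119 CPM, log2 2.45), and 1 was lower, MSRB3 (29.9 and 14.4 CPM, log2 -1.05), beside 6.43% and 7.34% of all genes. MSRB3 was at 126 CPM in mesenchymal and 5.03 CPM in epithelial cells of CNT, its ratio was -0.60 within mesenchymal cells, and it was under 10 CPM in epithelial cells of both libraries, so its 2-fold difference was not present within the mesenchymal class. GPX4, which reduces lipid peroxides, was the most abundant of those measured, at 1041 and 582 CPM (log2 -0.84). GPX1 was not among the genes measured. A separate list held 11 selenoproteins and left out those counted as antioxidant enzymes, such as MSRB1 and GPX4, so its counts do not cover all selenoproteins. In it 0 were higher and 1 was lower, beside the same 6.43% and 7.34% of all genes. The lower one was SELENOP, a secreted selenium carrier made mainly by the liver, at 1911 and 794 CPM (log2 -1.27). SELENOS was highest in ratio within the list (167 and 223 CPM, log2 0.42). SELENOP stood at 2501 CPM in epithelial and 109 CPM in mesenchymal cells of CNT, and the summed hepatic markers were lower in 3CK as given above; their part in its ratio was not tested.

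**Figure D5:**
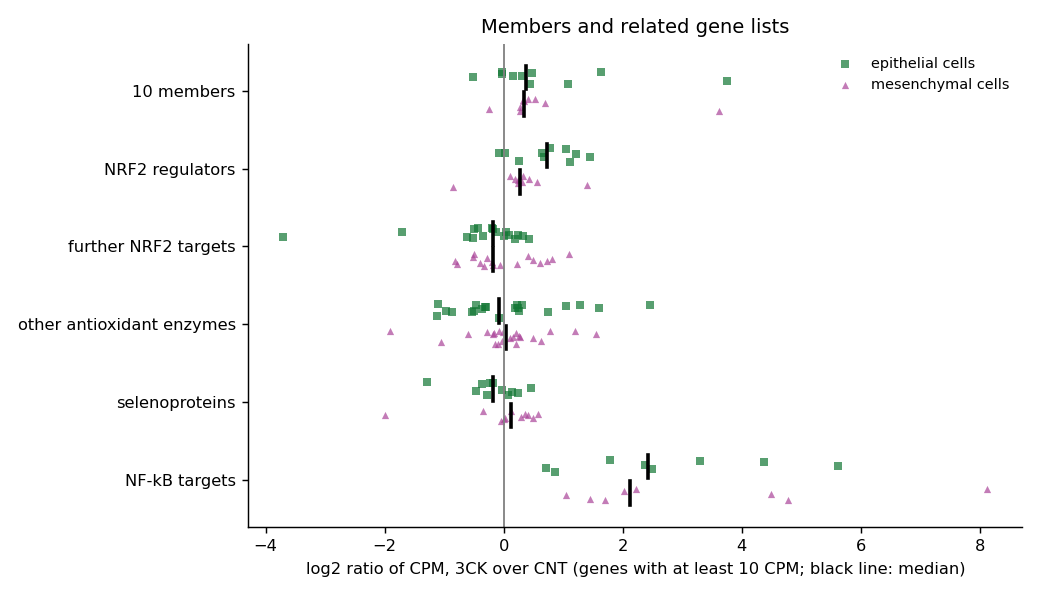
Log2 ratio of CPM, 3CK over CNT (horizontal axis), for the 10 members and 5 related lists, in epithelial cells (squares) and mesenchymal cells (triangles); each point is 1 gene that reached 10 CPM in either library, points are spread vertically for legibility, and black lines are medians. In epithelial cells the members' median was 0.38, that of the NRF2 regulators 0.73, of further NRF2 targets -0.18 and of NF-κB targets 2.43.

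The deposited counts do not settle which overlapping gene gave a read where annotations coincide. In GENCODE 44, SOD2 overlaps SOD2-OT1 on its own strand and WTAP and ACAT2 on the other, GPX2 overlaps CHURC1 on the other strand, and GCLC overlaps GCLC-AS1. TXNRD1 overlaps RPL18AP3 and EID3 on its own strand. SOD1, SRXN1 and GCLC each overlap a gene without a symbol on their own strand. Whether the counting used strand, and whether intronic reads were counted, was not given in the sources used here. SOD2 carries another identifier in GENCODE 44 (ENSG00000291237), and its position was taken by symbol.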

How the data were processed

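The comparison was of 2 single-cell libraries, 1 without (CNT) and 1 with 3 cytokines (3CK). Counts are UMI counts per gene and barcode, deposited as raw whole numbers; per the file headers they come from Cell Ranger 7.1.0, run on GRCh38, per the submitters' processing notes; the gene annotation was not given in the sources used here. Barcodes with at least 500 genes and at most 20% mitochondrial UMIs were kept, and Scrublet scores (scanpy 1.11.5) removed the top 0.8% per 1000 barcodes as doublets, 52 of CNT and 16 of 3CK. The deposited counts were then summed per library and class and divided by all UMIs to give CPM. Kept totals were 101831571 UMIs in CNT and 91860414 in 3CK. Log2 ratios carry exact 95% binomial intervals and levels exact Poisson intervals, which cover counting error only; 3 UMIs is the floor. With 1 library per group no p-value was computed. Genes were called at 2-fold among those with at least 10 CPM in the higher group. Shares of cells were taken after thinning to 5000 UMIs, correlations after thinning to 10000 (Pearson, log2 of UMIs + 1). The steps were tested on simulated data. edgeR 4.0.16 supplied TMM factors for an alternative scaling.

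All 10 members are named. From each related list the gene with the highest mean CPM and those with the largest and smallest ratio are named, with NFE2L2, KEAP1 and BACH1. Also named are the 5 genes most correlated with SOD2, NQO1 and GPX2 in set cell classes, among genes with at least 50 CPM in those cells. Genes named by a count of 5 or fewer, AKR1C3, GLRX, NFE2L1 and MAFK among them, were chosen after their values were seen. The members and lists were chosen with earlier results of these data known. Of 139 listed symbols, 1 was not analysed here, GPX1 of the other antioxidant enzymes. Leukocyte, endothelial, neuronal, endocrine, pluripotent and cycling markers were measured too, with the mesenchymal values that moved given in the results: in epithelial cells the leukocyte list summed to 93.5 CPM in CNT and 113 CPM in 3CK, endothelial to 19.5 and 26.1, neuronal to 233 and 331, endocrine to 13.9 and 5.56, pluripotent to 0.788 and 0.941, and cycling to 23.9 and 28.2 CPM, and the 11 epithelial markers to 11828 and 22364 CPM.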

Additional observations from a re-analysis of the deposited data

Results flagged for a closer look

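NQO1 was lower in 3CK in epithelial cells (log2 ratio -0.51) and higher in mesenchymal cells (0.69). The 2 classes differed in direction, and the difference between them was not tested, since each group held 1 library. HMOX1 was lower in 3CK among epithelial cells with low TTR (-0.37) and higher among those with high TTR (0.75), a difference in direction that was not tested either.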

How the results depend on the processing

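No paired analysis was possible because each group held 1 library. Among recomputed counts of members, 7 moved by over 1.5 times. The number of members higher in mesenchymal cells of 3CK was 2 with a 1.5-fold limit. In CNT, the number lower in epithelial than mesenchymal cells was 0 with TMM factors, 0 with totals that left out mitochondrial, ribosomal and the most abundant genes, and 0 with equal weight per cell, which also left 2 members higher, NQO1 (0.26) and GCLC (0.62) falling under 2-fold. In 3CK the number lower was 2 with the 1.5-fold limit and 1 with stricter classes. Smaller moves included the number of members higher in epithelial cells of 3CK, which was 2 in place of 3 with the reduced totals and with equal weight per cell. Over all cells that number was 3 in place of 2 with TMM factors. Of values of single members or shares, 386 stayed within the counting interval and 134 moved; those of GCLM and HMOX1 between the libraries changed sign near 0. Equal weight per cell turned the mesenchymal ratios of SRXN1 (-0.23), NQO1 (-0.53) and HMOX1 (-0.39), and equal weight among cells of at least 10000 UMIs, chosen after seeing the data, gave 0.35, 0.76 and 0.36. The cause was not tested. TMM factors shifted all ratios by 0.09 over all cells, 0.03 in epithelial and 0.18 in mesenchymal cells, and those between the classes by 0.39 in CNT and 0.18 in 3CK. Few mesenchymal UMIs widened the intervals of GPX2, GCLC, HMOX1 and SRXN1.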

Other observations

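Barcodes with over 20% mitochondrial UMIs, 306 in CNT and 175 in 3CK, were left out of the comparisons and held a different mixture of the members. CPM divides by all UMIs, mitochondrial ones included, so the rule that chose these barcodes in itself lowers the CPM of other genes. How far it did so was not tested. TXN was at 98.0 CPM in these CNT barcodes against 508 CPM in kept cells, and at 202 against 691 CPM in 3CK. SOD1 was lower in these barcodes too, at 93.7 against 199 CPM in 3CK. TXNRD1 was not lower to that degree, at 132 against 101 CPM in CNT and 169 against 191 CPM in 3CK. SOD2 was at 54.5 CPM in the CNT and 669 CPM in the 3CK barcodes, so the difference between the libraries was present there as well.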
